A study of Mus musculus with 2 samples.

Results

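Star strands of microRNAs were followed in E13.5 mouse embryos, across the 3rd mammary gland (here the gland) and the inter mammary gland region that served as its control (here the flank). They were taken as the miRNAs of the array whose name ends in a star, without miR-31*, miR-133a*, miR-140*, miR-199b* and the names that begin with miR-297, miR-455, miR-466, miR-467 or miR-669. This left 109 of the 118 star names among 696 miRNAs, read by 379 probes and 2180 spots on each array. Each was compared with the guide strand of the same name without the star, which the array held for 98 of them. The embryos were of the ICR strain and untreated, and the flank tissue lay between mammary glands 3 and 4. Total RNA, 100 ng for each tissue, was labelled with Cy3 and put on 1 Agilent 1-colour miRNA array per region, with both arrays on 1 slide and in 1 scan. No replicate check was possible and no test was run. Errors given below are standard errors over the spots of an array, which are technical only.

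A miRNA hairpin is cut by Dicer into a short duplex of its arms. One strand, the guide, is usually kept by an Argonaute protein and pairs with target mRNAs through its seed, while the other, the passenger strand, is mostly degraded. In older miRBase names the less abundant strand carried a star, and the pair was later renamed by the 5p and 3p arms of the hairpin. Some passenger strands are themselves loaded and act on targets of their own. At E13.5 the mouse mammary gland is an epithelial bud that sits in a condensed mesenchyme, and the flank beside it holds skin, mesenchyme and body wall muscle.

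Mature sequences from the RefSeq tables of assembly GRCm38.p6 matched 33 of the 34 star strands detected on at least 1 array, 23 of them on the 3p arm and 10 on the 5p arm. Which arm bears the star was placed by miRBase naming, since the arrays' files hold no probe sequences, and the placements of miR-1982* and miR-3072* on the 5p arm are the least certain. All sequences are written 5′ to 3′ with the seed, bases 2 to 8, in capitals. The first set shows the 3 star strands with lower signal in the gland, each before its partner on the same hairpin.
miR-1982* (5p): uUGGGAGGguccuggggagg
miR-1982-3p: uCUCACCCuauguucucccacag
miR-3072* (5p): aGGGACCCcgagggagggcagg
miR-3072 (3p): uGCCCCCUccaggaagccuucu
miR-135a* (3p, first locus): uAUAGGGAuuggagccguggcg
miR-135a (5p): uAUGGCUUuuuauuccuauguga

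The next set shows the 2 hairpins whose strands lay furthest apart in the ratio between the regions.
miR-483* (3p): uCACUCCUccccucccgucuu
miR-483 (5p): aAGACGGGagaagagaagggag
let-7a* (3p, first locus): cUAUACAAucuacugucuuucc
let-7a (5p): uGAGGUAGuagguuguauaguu

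The last set shows the 5 star strands with the brightest signal, followed by the only pair of detected star strands that shared a seed, miR-30a* and miR-30e*.
miR-299* (5p): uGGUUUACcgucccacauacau
miR-154* (3p): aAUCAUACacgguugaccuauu
miR-411* (3p): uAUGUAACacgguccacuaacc
miR-136* (3p): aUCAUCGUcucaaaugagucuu
miR-17* (3p): aCUGCAGUgagggcacuuguag
miR-30a* (3p): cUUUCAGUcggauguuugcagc
miR-30e* (3p): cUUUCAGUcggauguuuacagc

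The strands of a hairpin have different seeds, so the star strand would pair with other mRNAs than its guide. Of the 32 detected star strands with both arms in the tables, 9 began with U and 10 with C, while 17 of their partners began with U and 4 with C. miR-30a* and miR-30e* differ by 1 base, and their probes may not tell them apart. The same holds for let-7a*, whose letters are identical to those of let-7c-2-3p, and for miR-299*, which is 1 edit from miR-299b-5p. miR-376b* is 1 edit from miR-376c-5p, but miR-376c* had probes of its own. These read 5.84 in the gland and 5.38 in the flank, with 0 spots well above background, while miR-376b* read 83.9 and 70.5.

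Most star strands were not detected in either region, while most of their guides were detected in both. Detection of a probe asked for more than 50% of its spots to be well above background, and detection of a miRNA for 1 such probe. In the gland 33 of the 109 star strands (30.3%) were detected, and in the flank 31 (28.4%). Both regions showed 30 of them (27.5%), against 40.8% of all 696 miRNAs and 68 of the 98 guides (69.4%). The software's own call, which is more lenient, gave 40 star strands in the gland, 38 in the flank and 38 in both. The low share did not come with a difference between the arrays. Of the star spots, 19.8% were well above background in the gland and 19.2% in the flank, and for all miRNA spots the share was 38.1% on each array.

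**Figure D1:**
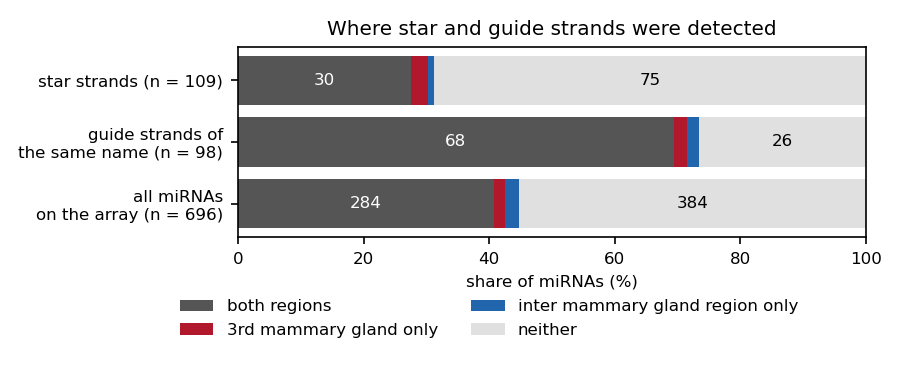
Share of miRNAs (%) detected in both regions, in 1 region only or in neither, for the 109 star strands, the 98 guide strands of the same name and all 696 miRNAs; the numbers in the bars are counts of miRNAs. The dark segment, detection in both regions, covers 27.5% of the star strands and 69.4% of the guides.

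Detection of a star strand went with detection of its guide. In 27 of the 98 pairs both strands were detected in both regions. In 39 pairs the guide was detected in both regions and the star strand in neither, and in 24 pairs no strand was detected. The opposite case, a star strand in both regions without its guide in both, was seen in 2 pairs. miR-3072* was detected in both regions while miR-3072 was detected in neither, and miR-135a* was detected in both while miR-135a was detected in the gland only. Of the 11 star names without a guide of exactly that name, 9 matched a guide once the locus number was dropped, and miR-125b* and miR-1982* matched none. For those hairpins the array held miR-125b-5p, miR-125b-3p and miR-1982.2, and miR-1982.2 was not detected in either region.

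The 75 star strands detected in neither region were close to the background. Their signal before scaling had a median of 2.31 in the gland (range -6.91 to 18.7) and of 1.45 in the flank (range -7.16 to 15.6). The negative control spots averaged 3.81 ± 5.28 (SD, 432 spots) and 2.23 ± 5.07 (SD, 428 spots) on these arrays. Of the 75 star strands, 70 had 0 spots well above background on either array. A strand with such a signal was not detectable on these arrays, which does not show that it was absent.

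The star strands detected in both regions had signals before scaling from 13.3 to 686 (median 50.8) in the gland and from 9.23 to 632 (median 53.1) in the flank. The probes of a miRNA differ in brightness, so these signals give no order of abundance between strands. All probes were detected on both arrays for 11 of the 30, against 220 of the 284 miRNAs detected in both regions, and 7 of the 30 rested on 1 detected probe among several. Most ratios of star strands therefore include probes that were not detected.

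**Figure D2:**
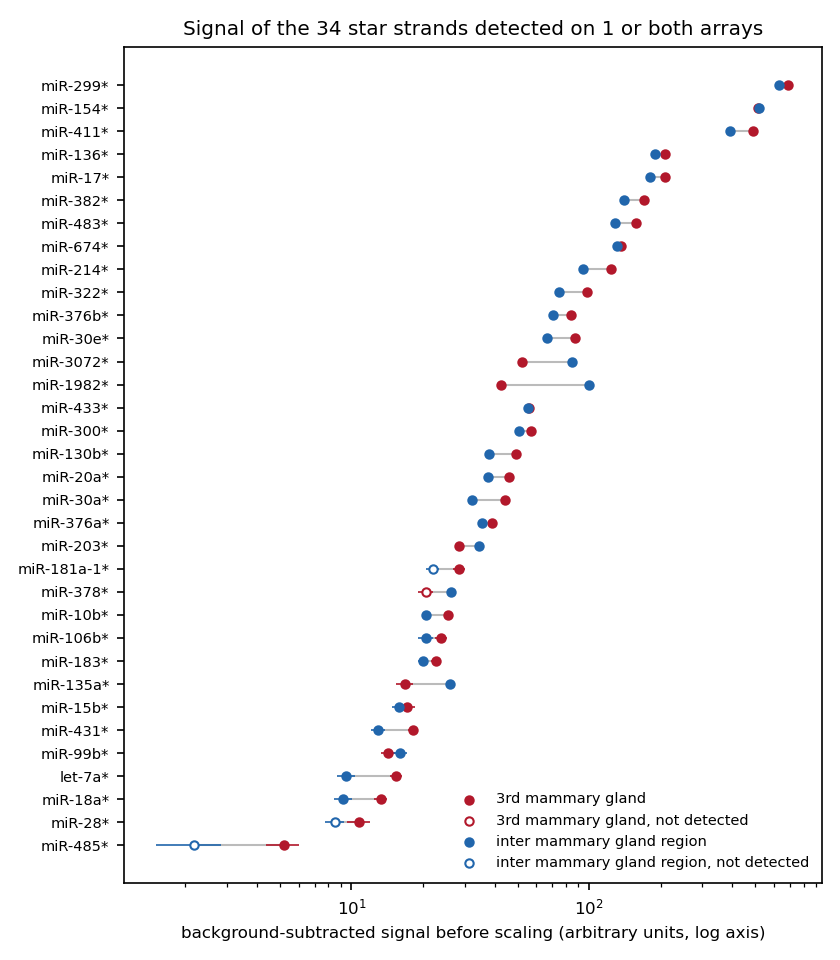
Background-subtracted signal before scaling (arbitrary units, log axis) of the 34 star strands detected on 1 or both arrays, ordered by mean signal, with 1 array per region; bars are standard errors over spots and open circles mark a region where the strand was not detected. The points of both regions lie close together for most strands, and miR-1982* and miR-3072* have the widest gaps toward the flank among the brighter ones.

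A larger share of star strands was detected in the imprinted miRNA cluster between Dlk1 and Dio3 on chromosome 12 than elsewhere. This cluster is expressed from the maternal chromosome in embryonic tissues. In the RefSeq annotation, 14 of the 109 star names lie between Dlk1 and Dio3, and 11 of these (78.6%) were detected in both regions. Of the 85 star names placed elsewhere 19 (22.4%) were detected in both regions. A further 10 names were not matched, and 0 of them were detected. That 0 carries no information. Detected star strands with a sequence had been assigned a hairpin beforehand, while undetected ones were matched by name alone. The 22.4% leaves these 10 names out. In the list of this cluster used here, which holds 13 of the 14 and leaves out miR-3072*, 10 star strands and 12 guides were detected in both regions. Their log2 ratios of gland over flank were near 0, with a median of 0.03 and a range from -0.14 to 0.36 for the star strands, and a median of -0.02 for the guides. miR-3072*, outside the list, lay at -0.82.

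miR-299* had a signal of 686 ± 16.5 in the gland and 632 ± 12.1 in the flank, a log2 ratio of -0.01 ± 0.04 after scaling. miR-154* read 513 ± 8.78 and 517 ± 8.42, a log2 ratio of -0.14 ± 0.03. miR-411* read 489 ± 7.34 and 393 ± 3.90, a log2 ratio of 0.19 ± 0.03. These 3 were the brightest star strands, and each lay within 1.5-fold between the regions. miR-136*, whose hairpin lies opposite Rtl1, an imprinted gene needed in the placenta, read 210 ± 1.99 and 189 ± 1.56. miR-431*, also opposite Rtl1, had the highest ratio among star strands of the cluster, with signals of 18.2 ± 0.91 and 13.0 ± 0.85 and a log2 ratio of 0.36 ± 0.12. miR-433*, from the same stretch, lay at -0.12 ± 0.06, and miR-376a*, miR-300*, miR-376b* and miR-382* between 0.01 and 0.16. miR-485* was detected in the gland only, and miR-127* and miR-376c* in neither region.

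In the other lists at most 50% of the star names were detected in both regions. Of the 7 star names of let-7 and miR-98, a family that rises as cells differentiate, 1 was detected in both regions, while all 7 guides were. Of the 8 star names of miR-17-92 and its paralogues, a cluster linked to proliferation, 4 were detected, against 8 of 8 guides. The miR-30 family had 2 of 5 with 4 of 4 guides, miR-15/16 had 2 of 5 with 5 of 5 guides, and miR-23/24/27 had 0 of 4 with 3 of 3 guides detected. Of 6 star names of epithelial miRNAs 2 were detected (miR-183* and miR-203*), against 6 of 6 guides. Among 7 of mesenchyme, matrix and vessel 1 was detected, miR-214*, against 4 of 7 guides. Among 3 of the Hox clusters 1 was detected, miR-10b*, against 3 of 3 guides. Of the 2 star names of miR-99/100 and miR-125, 1 was detected, miR-99b*, with its guide. None of 6 neural star names was detected, against 3 of 5 guides, and none of 2 blood and immune ones, against 0 of 2 guides. The muscle list held no star name because the selection had left out miR-133a*. Of the 41 star names in no list 6 were detected in both regions. No member star strand of a list lay at 1.5-fold or more between the regions. The 3 that did were in no list, among them miR-3072*, which lies between Dlk1 and Dio3 but was missing from that list.

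Between the regions the star strands differed little. Scaling used the 75th percentile over probes detected on both arrays, and it divided the quotient of gland over flank by 1.09. Of the 34 star strands detected on at least 1 array, 0 were at least 1.5-fold higher in the gland, against 3.21% of all detected miRNAs, and 3 (8.82%) were at least 1.5-fold lower, against 9.94%. The other 27 of the 30 detected in both regions (90.0%) lay within 1.5-fold, as did 252 of all 284 (88.7%). The median log2 ratio of the 30 star strands was 0.08 with quartiles of -0.05 and 0.24, and that of the 284 miRNAs was 0.05 with quartiles of -0.14 and 0.22. Both shares past the threshold were close to those of all miRNAs. Other scalings moved the star strands and all miRNAs together, to medians of 0.20 to 0.24 and 0.17 to 0.21, and 3 of 4 of them put 1 star strand, let-7a*, past 1.5-fold higher. In whole tissue, fewer cells of a type and less RNA per cell cannot be told apart.

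The 3 star strands lower in the gland were miR-1982*, miR-3072* and miR-135a*. miR-1982*, from a hairpin within Oaz1, the gene of an ornithine decarboxylase antizyme, had a signal of 42.5 ± 1.09 in the gland and 99.7 ± 0.84 in the flank. This was 2.57-fold lower in the gland, a log2 ratio of -1.36 ± 0.04. Its 2 probes read 43.8 ± 6.71 and 41.2 ± 1.62 (SD over 10 spots each) in the gland, and 102 ± 3.52 and 97.6 ± 3.58 (SD over 9 spots each) in the flank. Both probes were detected on both arrays and gave about the same difference. After another background correction (normexp) the log2 ratio was -0.63, still past 1.5-fold.

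miR-3072* lies within Mirg, the long RNA that also holds miR-154*, between Dlk1 and Dio3. Its signal was 52.3 ± 1.18 in the gland and 84.6 ± 0.94 in the flank, 1.77-fold lower in the gland. Its log2 ratio was -0.82 ± 0.04, apart from the range of -0.14 to 0.36 of the other 10 detected star strands of the region. Its dimmer probe read 29.4 ± 3.91 and 59.2 ± 3.81, and the brighter one 75.2 ± 6.38 and 110 ± 4.36 (SD over spots). Both probes were lower in the gland, but the dimmer one was detected in the flank only. After normexp, neither miR-3072* nor miR-135a* reached 1.5-fold. The offset added in that correction narrows the ratios of dim strands, so this drop cannot decide whether their lower signal holds.

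miR-135a* had a signal of 16.8 ± 1.36 in the gland and 26.0 ± 0.73 in the flank, 1.69-fold lower in the gland, with a log2 ratio of -0.76 ± 0.12. Of its 4 probes, the brightest read 37.7 ± 7.13 and 61.0 ± 4.70 and the next 28.3 ± 7.25 and 35.9 ± 3.1 (SD over 5 spots each), and the others were at the level of the negative controls. Its guide miR-135a ran the other way. miR-135a had a signal of 70.2 ± 1.55 in the gland, with all 20 spots well above background, and of 16.6 ± 0.89 in the flank, with 0 of 18, which made it at least 2.37-fold higher in the gland. When a probe needed all of its spots above background, miR-135a* was not detected in the gland, since 4 of 5 spots of its brightest probe met this there, and it then had no ratio. The bound for miR-135a sets its signal against the lowest single probe detected on the other array. The guide is also made from another locus, while this star sequence was placed at the first, which lies within Glyctk on chromosome 9.

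**Figure D3:**
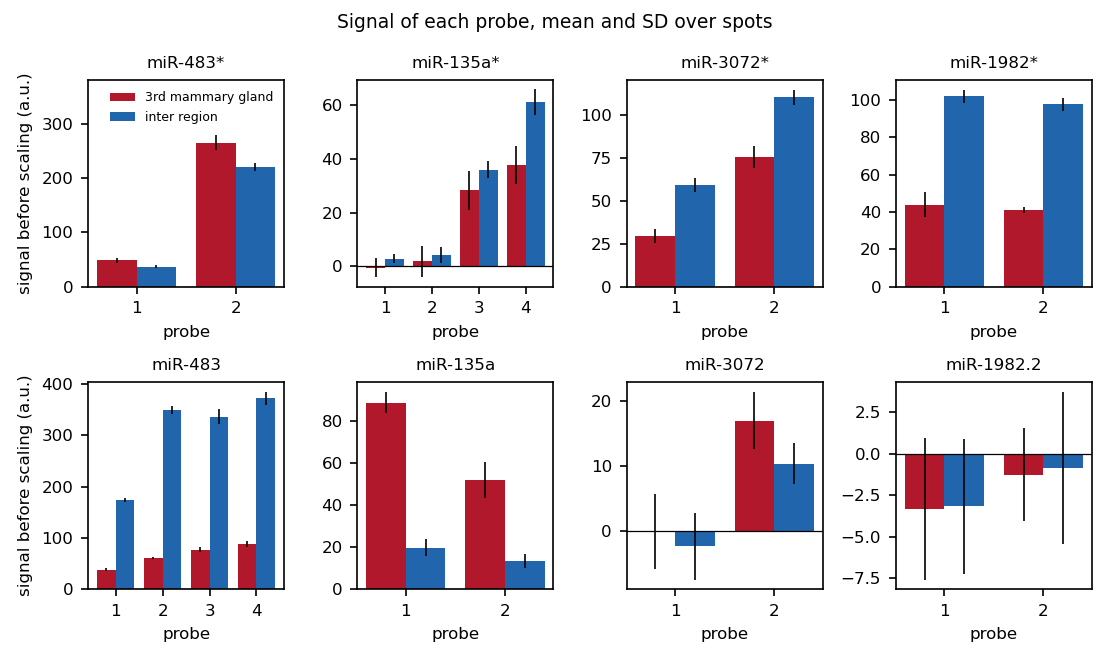
Signal before scaling (arbitrary units) of every probe of 4 star strands (upper panels) and of the guide or other strand of the same hairpin (lower panels), as bars of the mean and SD over the spots of 1 array per region; probes are numbered within a miRNA and each panel has its own scale. The 4 probes of miR-483 are higher in the flank while the 2 probes of miR-483* are not, and miR-135a and miR-135a* differ in opposite directions.

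The 4 muscle guide miRNAs (the list of miR-1, miR-133a, miR-133b and miR-206) were all at least 1.5-fold lower in the gland, with log2 ratios from -1.43 to -1.12 and a summed signal of 1646 against 3610 in the flank. The 7 skin epithelial guides had a median log2 ratio of 0.34 (range -0.31 to 0.51), 5 of them above 0 and 0 past 1.5-fold. The part of the tissue mix in the ratios of the star strands was not tested.

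A further 4 star strands were detected on 1 array only. miR-181a-1* read 28.5 ± 1.63 in the gland, where it was detected, and 22.02 ± 1.44 in the flank. miR-28* read 10.8 ± 1.17 and 8.52 ± 0.80, and miR-485* 5.18 ± 0.83 and 2.17 ± 0.67, both detected in the gland only. miR-378*, from a hairpin within Ppargc1b, was detected in the flank only, with 26.4 ± 1.19 there and 20.5 ± 1.52 in the gland. None had a lower bound above 1 against the lowest detected probe of the other array, so no fold is given for them. The guide miR-181a, known from lymphocyte development, was detected in both regions with a log2 ratio of 0.70. The guide miR-378, a regulator of metabolism, had a log2 ratio of -0.40.

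The remaining star strands lay between log2 ratios of -0.41 and 0.57. miR-203*, the star strand of an miRNA that limits the proliferation of skin progenitors, read 28.4 ± 0.92 and 34.3 ± 1.27, with a log2 ratio of -0.41 ± 0.07. Its guide lay at -0.31, on the same side. miR-99b* read 14.3 ± 0.96 and 16.04 ± 1.13, with a log2 ratio of -0.30 ± 0.14, but its only detected probe read 41.3 ± 4.33 and 38.3 ± 5.14 (SD over 5 spots each), and its guide lay at 0.16. miR-214*, whose hairpin lies in Dnm3os, a mesenchymal non-coding RNA, read 124 ± 1.001 and 93.8 ± 0.89, a log2 ratio of 0.27 ± 0.02 beside 0.26 for its guide.

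At the upper end were let-7a* with 15.4 ± 0.86 and 9.53 ± 0.87 (log2 ratio 0.57 ± 0.15), and miR-18a* with 13.3 ± 0.82 and 9.23 ± 0.82 (log2 ratio 0.40 ± 0.16). Both were dim. Each had 1 detected probe of 4, and that probe read 44.5 ± 3.30 and 30.4 ± 3.13 for let-7a*, and 38.4 ± 2.4 and 37.4 ± 3.8 for miR-18a* (SD over spots). For miR-18a* the ratio above 0 thus came from probes that were not detected. miR-30a* read 44.4 ± 1.20 and 32.3 ± 1.46 (log2 ratio 0.33 ± 0.08), and miR-30e*, with the same seed, 87.3 ± 1.80 and 66.8 ± 1.47 (0.26 ± 0.04). miR-322*, from an X-linked cluster, had a log2 ratio of 0.26 ± 0.05, and miR-17*, of the miR-17-92 cluster, of 0.07 ± 0.03 with signals of 208 ± 3.75 and 181 ± 2.43.

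A split of the star strands at a signal of 100 in the flank set the wider ratios below the cut. The 8 with a signal of at least 100 in the flank had log2 ratios from -0.14 to 0.19 with a median of 0.05. The 22 under 100 ran from -1.36 to 0.57 with a median of 0.11, beside a median of 0.05 over all 98 miRNAs under 100. Over all miRNAs brightness did not bound the ratio in this way, as the 186 at 100 or more ran from -4.91 to 0.96. All 3 star strands past 1.5-fold were among the 22, but miR-1982* lay just under the cut with 99.7 in the flank. miR-1982* and miR-3072*, which read 84.6 there, were both above the median of 53.1 over the 30 star strands. The narrow range of the 8 thus depends on where the cut was set.

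Both strands of a hairpin differed between the regions to a similar extent in most pairs, since the ratios were close to 0. Over the 27 pairs with both strands detected in both regions, the difference in log2 ratio, star minus guide, had a median of 0.12 and was above 0 in 20. The median fold between the strands was 1.13, against 1.07 over 17 pairs that the array names by their 5p and 3p arms. In 2 of the 27 pairs (7.41%) the strands were at least 1.5-fold apart, against 3 of these 17 (17.6%). These measures went in opposite directions, so they do not set the star pairs clearly apart. After normexp, whose offset narrows dim ratios in both sets, 1 of the 27 and 0 of the 17 were at least 1.5-fold apart. The ratios of star strands and guides gave a Pearson r of 0.03 (Spearman rho 0.24) across the 27 pairs, and 0.23 (rho 0.28) across 26 pairs without miR-483. The hairpins are no independent replicates, and all points share the same arrays and scaling.

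The pair furthest apart was miR-483 and miR-483*, from a hairpin within Igf2, the imprinted gene of a fetal growth factor on chromosome 7. miR-483 had a signal of 65.7 ± 0.997 in the gland and 308 ± 2.37 in the flank, a log2 ratio of -2.36. All 4 of its probes were lower in the gland, by 4.61-fold to 6.31-fold. miR-483* had a signal of 157 ± 2.26 in the gland and 129 ± 1.28 in the flank, a log2 ratio of 0.16 ± 0.03. Its brighter probe read 265 ± 13.6 and 220 ± 7.54 and the other 48.8 ± 4.26 and 36.9 ± 2.89 (SD over 10 spots each). The strands thus differed by 2.52 on the log2 scale, and the spread over spots was far smaller than this. After normexp the difference was 1.66.

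The second pair past 1.5-fold was let-7a and let-7a*. let-7a lay at a log2 ratio of -0.05 and let-7a* at 0.57, a difference of 0.62 ± 0.16. With the brightest probe of each strand, and after normexp, this pair was less than 1.5-fold apart. The offset of normexp narrows the ratio of a strand as dim as let-7a*. At the other end, miR-99b* lay 0.45 below miR-99b on the log2 scale. With the brightest probe, the only one detected, miR-99b* had a log2 ratio of -0.02, so most of its lower ratio came from undetected probes. miR-183* lay below miR-183, which had a log2 ratio of 0.40 beside 0.05 ± 0.10 for the star strand.

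**Figure D4:**
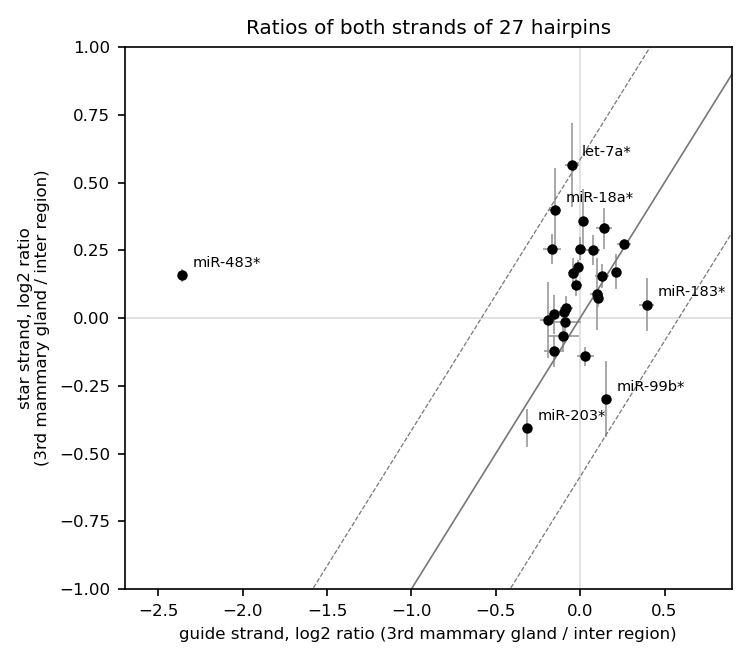
Log2 ratio of gland over flank of the star strand (vertical axis) against its guide (horizontal axis, wider scale) for 27 hairpins; bars are standard errors over spots, the solid line marks equal ratios and the dashed lines a 1.5-fold difference between strands. miR-483* stands alone at the left, with the guide at -2.36 and the star strand at 0.16, and let-7a* lies just beyond the upper dashed line.

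As placed here, the star strands lower in the gland were rich in guanine. Guanine made up 60% of miR-1982*, 54.5% of miR-3072* and 45.5% of miR-135a*, and at most 36.4% of each of the other 27 star strands detected in both regions. The run GGG, searched on the mature strand only, was found in 9 of the 30 star strands (30.0%) and in 30.6% of the 1679 mature mouse sequences of the RefSeq table. All 3 lower star strands held it, so 3 of the 9 with GGG were lower and the others were not. The median log2 ratio was 0.05 for the 9 with GGG and 0.16 for the 21 without it. Across the 30 star strands the share of guanine and the log2 ratio gave a Pearson r of -0.73 (Spearman rho -0.32), as a description of points that share the same arrays. These values include the 3 lower strands, which prompted the search and are also the 3 richest in guanine. No value without them was computed.

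Among the guides of these pairs, miR-483 had 50% guanine and the log2 ratio of -2.36, and its star strand 4.76% guanine and 0.16. The guides next in share of guanine did not have low ratios. miR-674, with 45.5% guanine, had a log2 ratio of -0.10, beside -0.07 ± 0.05 for miR-674* with 9.09%. miR-382, with 40.9%, lay at 0.13. Among the guides a low ratio with much guanine was thus seen for miR-483 alone. The pattern among the star strands rests on the placement of the star. Should miR-1982* and miR-3072* lie on the 3p arm instead, they would hold 8.70% and 18.2% guanine and no GGG. The part of base composition in the hybridization signal was not tested.

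**Figure D5:**
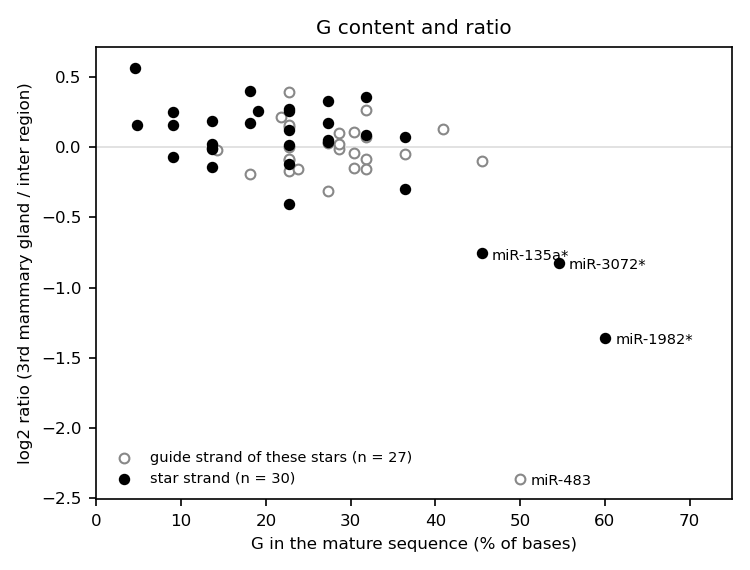
Log2 ratio of gland over flank (vertical axis) against the share of guanine in the mature sequence (horizontal axis, % of bases) for the 30 star strands detected in both regions (filled) and the guides of 27 of them (open). The 3 star strands at or below -0.76 and the guide miR-483 all have at least 45.5% guanine with the stars placed by miRBase naming, and all other points lie at or above -0.41.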

How the data were processed

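Total RNA was extracted with Trizol, and 1 Agilent array per region was read. With Feature Extraction 10.7.3.1 the authors turned each spot into a background-subtracted intensity on a linear scale, without scaling between arrays. A table that they deposited gives the total intensity of each of the 696 miRNAs, and 0.1 for those the software did not call. No column was left unmapped.

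Control spots and outlier spots (1.79% of the star spots in the gland and 2.02% in the flank) were dropped. The mean over spots gave the probe signal, which was divided by the array's 75th percentile over probes detected on both arrays, and the mean over probes gave the miRNA signal. Folds of miRNAs detected on 1 array used the lowest detected probe as floor (30.7 and 27.1 before scaling). The threshold was 1.5-fold.

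Named star strands were the 8 highest and 8 lowest ratios, all detected on 1 array, the 5 pairs furthest apart in each direction, stars without a detected guide, the 5 brightest and up to 4 members of each list. Members and lists were chosen with earlier results of these data known. The GGG search and the placement between Dlk1 and Dio3 were added after the values were seen. Star names were matched to RefSeq (GRCm38.p6). No coordinates are given because the grid of the array is built on another assembly. Precision is limited by there being 1 array per region.

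Alternatives changed the scaling, signal column, background correction (normexp, offset 50), detection rule, dim filter, outlier spots, probe choice, floor, threshold and name matching. The steps were tested on simulated data. Python 3.11.15, numpy 2.4.6, pandas 2.3.3, scipy 1.17.1, matplotlib 3.10.9, R 4.3.3 and limma 3.58.1 were used.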

Additional observations from a re-analysis of the deposited data

How the results depend on the processing

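No paired analysis was possible because there is a single array for each region. Of 16 alternatives, 13 gave ratios of the 23 named star strands, 284 values in all. Of these 149 moved by more than the spread over spots and 135 did not, 265 kept their sign, and no called star strand changed direction. The count of star strands past 1.5-fold higher in the gland rose from 0 to 1 without scaling, with the median of the detected probes or with the 75th percentile over all probes, to 2 when the software called detection, and to 3 with the scaled totals or the deposited table. The count of lower ones went from 3 to 6 with the scaled totals and the deposited table, to 1 with normexp and at 2-fold, and to 0 with dim miRNAs left out. The median log2 ratio of 0.08 became 0.24 for the 75th percentile over all probes, 0.21 with no scaling and with quantile normalization, 0.20 with the median of the detected probes, 0.020 with every spot of a probe required and 0.14 with dim miRNAs left out. Leaving out dim miRNAs, at under 2 times the floor, kept 12 star strands detected in the gland, 12 in the flank and 12 in both, and 10 pairs. The pairs at least 1.5-fold apart went from 2 to 1 with quantile normalization, normexp, every spot required, dim miRNAs left out, the brightest probe and 2-fold, to 4 with the software's call and to 5 with the totals and the deposited table. miR-483 and miR-483* stayed apart under all of them, by 1.66 to 2.58 on the log2 scale. Subtracting the mean of the negative controls, chosen after the data were seen, left 3 pairs apart. A division of each array by another value shifts all log2 ratios alike, which quantile normalization does not, and the total signals and the dim filter use other sets of probes or miRNAs. The offset added in normexp narrows the ratios of dim strands. For the other settings the cause was not tested. All probes were detected on both arrays for 11 of the 30 star strands detected in both regions, against 220 of all 284 such miRNAs. The part of undetected probes in these changes was not tested.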

Other observations

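Outside the star strands, 250 miRNAs were detected in both regions, and 60 of them had an exact name in the RefSeq table. Many of these names carry an arm, so the 60 do not stand for the 250. Of the 15 that held GGG, 5 were at least 1.5-fold lower in the gland, and of the 45 without it 3 were. Over all miRNAs detected on at least 1 array the share was 9.94%. The median log2 ratio was -0.11 with GGG and 0.13 without it. Across the 60 miRNAs the share of guanine and the log2 ratio gave a Spearman rho of -0.50 (Pearson r -0.52), given as a description of points that share the arrays, the scaling and the probe design. The search was made after the star strands with lower ratios had been seen.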
